A study of Homo sapiens with 4 samples.

Results

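The genes described are 10 human oxygenases that remove methyl groups from histones or begin their removal from DNA: KDM2B, KDM3A, KDM4B, KDM4C, KDM5B, KDM6B, KDM7A, TET1, TET2 and TET3. They were chosen by symbol, and all 10 were found among the 15562 genes of the RNA-seq tables. The cells were H1975, a line of lung adenocarcinoma cells with genotype WT. The labels give 1 RNA-seq library from cells in Normoxia (H1975-NC) and 1 from cells moved for 24 h to a Hypoxia incubator whose gas was 94% N2, 5% CO2 and 1% O2. Both cultures grew in serum-supplemented medium under 5% CO2. With 1 library a condition there is no spread between cultures, so each ratio below carries only the interval that read counting allows and none was tested. In bulk RNA, fewer cells that express a gene and less RNA per cell cannot be told apart.

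These enzymes belong to the Fe(II) and 2-oxoglutarate dependent oxygenases. Each turnover consumes molecular oxygen and 2-oxoglutarate and releases succinate and carbon dioxide, so oxygen is a substrate of demethylation itself. The KDM proteins carry a JmjC catalytic domain and oxidise the methyl groups of histone lysines. The TET proteins oxidise 5-methylcytosine in DNA. In cells short of oxygen the hypoxia-inducible factors (HIF) bind the core letters ACGTG or GCGTG near their target genes, and several KDM genes, KDM3A and KDM4B among them, are known HIF targets.

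Total counts were 17643836 for the normoxia and 18943320 for the hypoxia library. All 8 lung epithelial markers listed were in the table and summed to 3634 FPKM in normoxia and 3262 in hypoxia, with KRT8 at 1821 and EPCAM at 49.97 FPKM in normoxia, and the surfactant gene SFTPB at 0.211 FPKM. The keratin genes KRT7, KRT18 and KRT8 had log2 ratios of -0.42, -0.13 and -0.10, with intervals below 0. Other epithelial markers lay on the other side, with NKX2-1 at 0.12 (0.01 to 0.22). NAPSA, EPCAM and CDH1 were at 0.14, 0.09 and 0.07, with intervals that spanned 0. SFTPB had 14 counts in each library. Summed levels of the 4 fibroblast markers were 16.9 FPKM in normoxia and 18.1 in hypoxia, of which COL1A1 made 15.1 in normoxia. COL3A1, on 25 and 60 counts, had a log2 ratio of 1.17 (0.47 to 1.91). The part of these marker differences in the results was not tested. The 3 endothelial markers in the table summed to 1.19 and 1.03 FPKM. Of the leukocyte markers PTPRC had 0 counts in normoxia and 2 in hypoxia, and CD68, a lysosomal protein gene, was at 128 FPKM in both. Of 12 HIF targets listed as a check of the treatment, 11 had a log2 ratio of hypoxia to normoxia whose counting interval lay above 0. The ratios ran from 0.26 (ADM, whose interval of -0.10 to 0.62 spanned 0) to 1.32 (NDRG1), with a median of 0.64. CA9 was at 0.51 and VEGFA at 0.65.

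The promoters of 6 members are shown because the counting interval of their log2 ratio, given below, lay wholly on one side of 0: KDM3A, KDM4B, KDM5B, TET1 and TET2 were higher in the hypoxia library and TET3 lower. Each run is the 250 bases before the most upstream start that the RefSeq promoter table lists for the gene (GRCh38.p14), read 5′ to 3′ on the gene's strand. For KDM3A and TET3 that start lies inside the annotated span given below, so a start further upstream was not used here. Capitals mark ACGTG and GCGTG on either strand, so the other strand's matches read CACGT and CACGC. The regions are chr2:86441121-86441370 (plus strand), chr19:4968863-4969112 (plus), chr1:202808422-202808671 (minus), chr10:68560087-68560336 (plus), chr4:105145625-105145874 (plus) and chr2:73984660-73984909 (plus).
KDM3A: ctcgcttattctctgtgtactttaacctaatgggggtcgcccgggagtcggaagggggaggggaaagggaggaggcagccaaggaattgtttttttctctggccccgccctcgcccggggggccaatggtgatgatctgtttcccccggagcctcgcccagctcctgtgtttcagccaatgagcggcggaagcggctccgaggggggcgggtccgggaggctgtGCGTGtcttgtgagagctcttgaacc
KDM4B: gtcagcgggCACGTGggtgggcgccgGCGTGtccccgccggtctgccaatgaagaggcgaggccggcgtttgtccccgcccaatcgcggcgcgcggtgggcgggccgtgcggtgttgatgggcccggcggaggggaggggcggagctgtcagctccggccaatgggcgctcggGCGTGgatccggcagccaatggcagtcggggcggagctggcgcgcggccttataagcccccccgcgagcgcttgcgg
KDM5B: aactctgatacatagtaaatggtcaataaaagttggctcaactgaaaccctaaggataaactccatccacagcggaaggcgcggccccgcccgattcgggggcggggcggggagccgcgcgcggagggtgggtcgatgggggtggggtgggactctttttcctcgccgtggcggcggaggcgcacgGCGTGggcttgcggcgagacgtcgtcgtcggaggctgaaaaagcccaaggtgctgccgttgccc
TET1: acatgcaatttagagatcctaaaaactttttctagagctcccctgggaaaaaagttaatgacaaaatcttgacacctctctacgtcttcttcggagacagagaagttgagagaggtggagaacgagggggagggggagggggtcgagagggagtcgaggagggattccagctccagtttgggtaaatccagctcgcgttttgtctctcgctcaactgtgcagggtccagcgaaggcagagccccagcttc
TET2: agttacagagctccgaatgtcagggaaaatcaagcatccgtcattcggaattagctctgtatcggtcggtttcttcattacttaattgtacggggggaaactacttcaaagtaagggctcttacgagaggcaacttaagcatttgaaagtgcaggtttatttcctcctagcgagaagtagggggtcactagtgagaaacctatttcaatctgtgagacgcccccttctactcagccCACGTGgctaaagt
TET3: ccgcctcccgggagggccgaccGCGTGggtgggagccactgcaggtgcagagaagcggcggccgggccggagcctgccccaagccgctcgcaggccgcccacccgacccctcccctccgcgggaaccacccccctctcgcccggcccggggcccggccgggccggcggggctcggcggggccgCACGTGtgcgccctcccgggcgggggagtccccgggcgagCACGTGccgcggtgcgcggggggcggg

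The KDM3A run held a single match, GCGTG, whose first base lay 26 bases before the start. KDM5B also held 1, at 64 bases before the start. In KDM4B there were 4 matches, of which ACGTG and CACGT overlap in the palindrome CACGTG. TET2 held that palindrome once and TET3 held it in 2 places besides 1 GCGTG. Over the 300-base windows (250 bases before to 50 after a start), 9 of the 10 members had a match in their most upstream window. TET1 had none there. Of the most upstream windows of all 12509 genes with a window and a read in the table, 60.2% held a match. Of all 35116 windows 48.4% did. The median CpG count was 26.5 in the members' windows and 25.0 in those of all these genes.

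Among the 10 members, the demethylases of histone H3 lysine 9, a repressive mark, were led by KDM3A, which acts on its mono- and dimethyl forms. KDM3A (Entrez 55818, chromosome 2, 86437044 to 86492716) had 965 counts in normoxia and 1313 in hypoxia, or 10.6 and 13.4 FPKM. FPKM are counts scaled to the library total and to the length of the gene. Its log2 ratio of counts, scaled by the trimmed mean of M values (TMM), was 0.35 (95% counting interval 0.23 to 0.47), a ratio of 1.28. The hypoxia library was higher and the FPKM intervals of the libraries, 9.92 to 11.3 and 12.7 to 14.1, did not overlap. This log2 ratio was at percentile 94.9 of the 12725 genes that reached a CPM of 1 (counts scaled to library size) in at least 1 library.

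KDM4B and KDM4C remove the trimethyl form of the same residue and also act on lysine 36. KDM4B (Entrez 23030, chromosome 19, 4969113 to 5153598) had 1387 counts in normoxia and 1744 in hypoxia, 8.81 and 10.3 FPKM, with a log2 ratio of 0.24 (0.14 to 0.34). KDM4C (Entrez 23081, chromosome 9, 6720863 to 7175648) had 195 and 246 counts, 0.948 and 1.11 FPKM, with almost the same log2 ratio of 0.24 but a wider interval (-0.03 to 0.52). The KDM4C interval spans 0 on its smaller counts. KDM7A (Entrez 80853, chromosome 7, 140084746 to 140176983), which acts on lysines 9 and 27, had 205 and 245 counts with a log2 ratio of 0.16 (-0.11 to 0.44). Counts this low could not show a difference of that size.

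KDM5B removes methyl groups from lysine 4, a mark of active promoters. It (Entrez 10765, chromosome 1, 202724495 to 202808421) had 1113 counts in normoxia and 1397 in hypoxia, 5.82 and 6.80 FPKM, and a log2 ratio of 0.24 (0.12 to 0.35). KDM2B, which acts on lysine 36 and recruits a Polycomb complex to CpG islands, lay on the other side. KDM2B (Entrez 84678, chromosome 12, 121408461 to 121582279) had 447 and 443 counts, and its log2 ratio was -0.11 (-0.30 to 0.09). KDM6B removes the Polycomb mark on lysine 27. It (Entrez 23135, chromosome 17, 7834217 to 7854796) had 1100 and 1121 counts and a log2 ratio of -0.07 (-0.19 to 0.06). Neither KDM2B nor KDM6B differed between the libraries by more than counting allows.

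The 3 TET genes, which begin DNA demethylation, had ratios on both sides of 0. TET1 (Entrez 80312, chromosome 10, 68560337 to 68694487) had the fewest counts, 84 in normoxia and 120 in hypoxia, and a log2 ratio of 0.42 (0.0076 to 0.84), the highest of the 10 from counts. On the log2(FPKM + 1) scale, which pulls low genes toward 0, TET1 was at 0.10 and below KDM3A at 0.32. Scaled by total counts instead, the TET1 interval spanned 0. TET2 (Entrez 54790, chromosome 4, 105145875 to 105279803) had 124 and 171 counts and a log2 ratio of 0.37 (0.03 to 0.72). TET3 (Entrez 200424, chromosome 2, 73983631 to 74135498) had 400 counts in normoxia and 343 in hypoxia, 1.55 and 1.24 FPKM. Its log2 ratio was -0.31 (-0.53 to -0.10), 1.24-fold lower in hypoxia, and it was the only member whose interval lay wholly below 0.

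**Figure D1:**
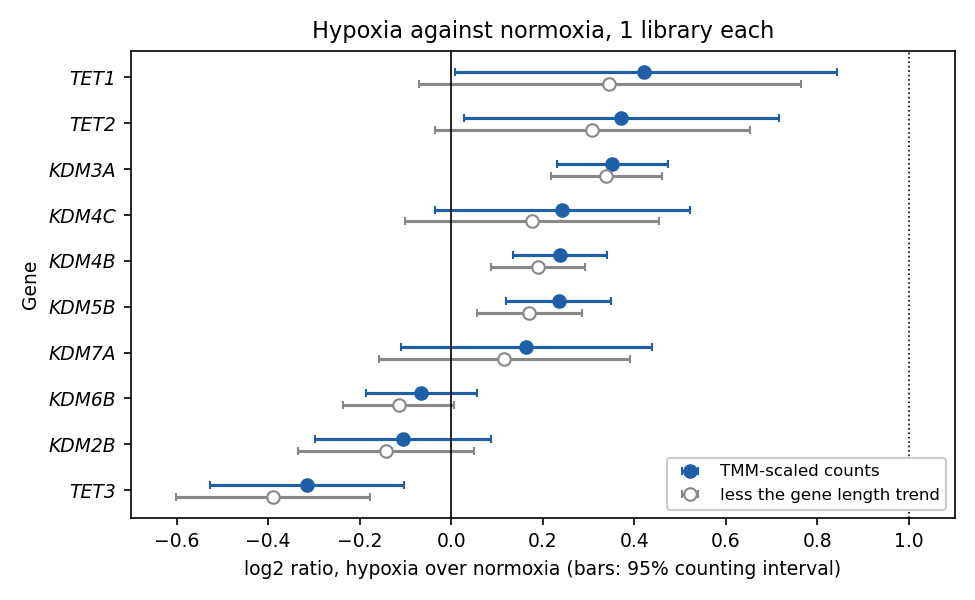
Log2 ratio of hypoxia to normoxia for each of the 10 genes, with 95% counting intervals as bars, from TMM-scaled counts (filled) and after subtraction of the gene length trend (open). The dotted line marks a 2-fold difference, which no interval reaches, and TET3 at -0.31 lies apart from TET1 at 0.42 and TET2 at 0.37.

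All 10 genes passed the filter at a CPM of 1, and 7 had a log2 ratio above 0, against 50.7% of all genes tested. The interval of 5 (KDM3A, KDM4B, KDM5B, TET1 and TET2) lay wholly above 0, against 15.0% of all genes, and that of 1 (TET3) wholly below, against 14.0%. Since more reads narrow the interval, the share was also taken over the 8005 genes whose reads in both libraries together lay in the members' range of 204 to 3131. There it was 13.3% above and 12.3% below. The median log2 ratio of the 10 was 0.24, and that of all genes tested was 0.0032. No member reached a ratio of 2 with an interval excluding 1, which 0.472% of all genes did in the higher and 0.440% in the lower direction. A ratio of 1.2 or more with such an interval was reached by 3 members (KDM3A, TET1 and TET2) and by 4.86% of all genes. The members were named with earlier results of these data known, so these shares describe the list and nothing is called particular to it.

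The members are long genes, and over all genes the ratio moved with length. Lengths implied by the deposited FPKM ran from 5171 bases (KDM3A) to 16852 (TET1), with a median of 10231, against 4007 over all genes tested. By decile of length, the median log2 ratio of all genes went from -0.06 in the shortest to 0.07 in the longest, and the share above 0 from 32.9% to 68.2%. Of the members, 6 were in the longest decile and 3 in the one before it. KDM3A, in decile 7, was the shortest. Among the 3036 genes in the members' read range and at least as long as KDM3A, 1894 had a log2 ratio above 0. Of these 3036 genes, 19.1% had an interval above 0 and 7.35% one below, and their median log2 ratio was 0.04.

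Subtracting the running median of log2 ratio over length took between 0.01 and 0.08 from each member, and the median of the 10 became 0.17. The intervals of KDM3A (0.34, 0.22 to 0.46), KDM4B (0.19, 0.09 to 0.29) and KDM5B (0.17, 0.06 to 0.29) still lay above 0. This was 3 of 10, beside 12.0% of genes in the same read range after the same step. Those of TET1 (0.34, -0.07 to 0.76) and TET2 (0.31, -0.04 to 0.65) then spanned 0. TET3 was further below 0, at -0.39 (-0.60 to -0.18), an interval side that 11.8% of genes in the read range shared. KDM6B was at -0.11 (-0.24 to 0.0067) and KDM2B at -0.14 (-0.34 to 0.05). What gives rise to the length trend was not tested.

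**Figure D2:**
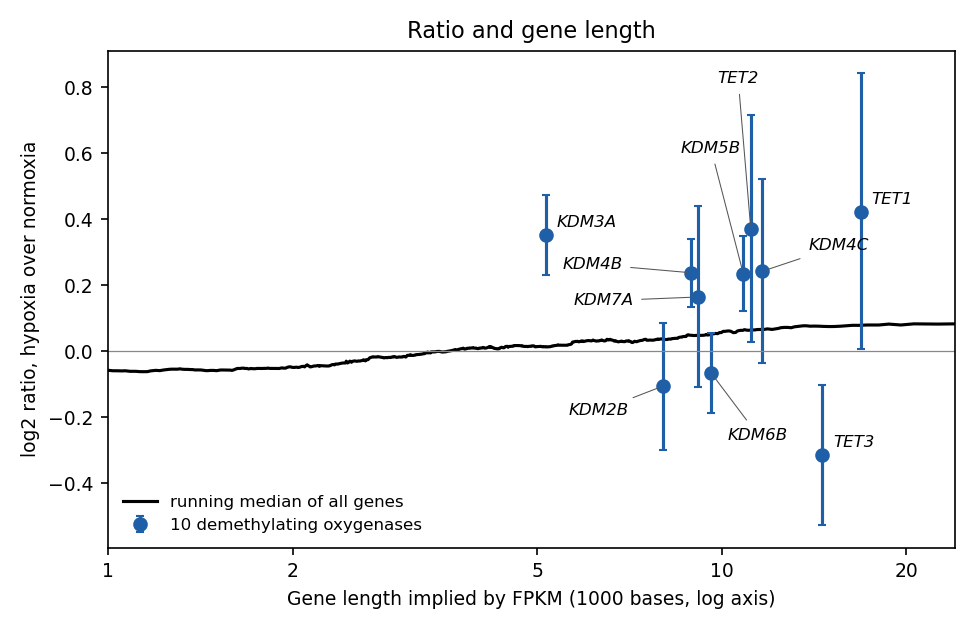
Log2 ratio of hypoxia to normoxia against gene length (log axis) for the 10 genes, with 95% counting intervals, and the running median of all genes tested as a line. The line rises with length, KDM3A stands above it at 5171 bases, and TET3 lies well below it although it is among the longest genes.

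Levels per length differed far more between the members than between the libraries. In normoxia the order was KDM3A (10.6 FPKM), KDM4B (8.81), KDM6B (6.49), KDM5B (5.82), KDM2B (3.16), TET3 (1.55), KDM7A (1.27), KDM4C (0.948), TET2 (0.630) and TET1 (0.283). The counting intervals of neighbours overlapped for KDM6B with KDM5B and for TET3 with KDM7A, and no other neighbours overlapped. In hypoxia KDM5B (6.80 FPKM) stood before KDM6B (6.16) and KDM7A (1.41) before TET3 (1.24), each again within overlapping intervals. TET3 also overlapped KDM4C (1.11) there. TET1 was at percentile 2.83 of the FPKM of all genes tested in normoxia and KDM3A at 58.2, so the TET values rest on genes that were expressed low.

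**Figure D3:**
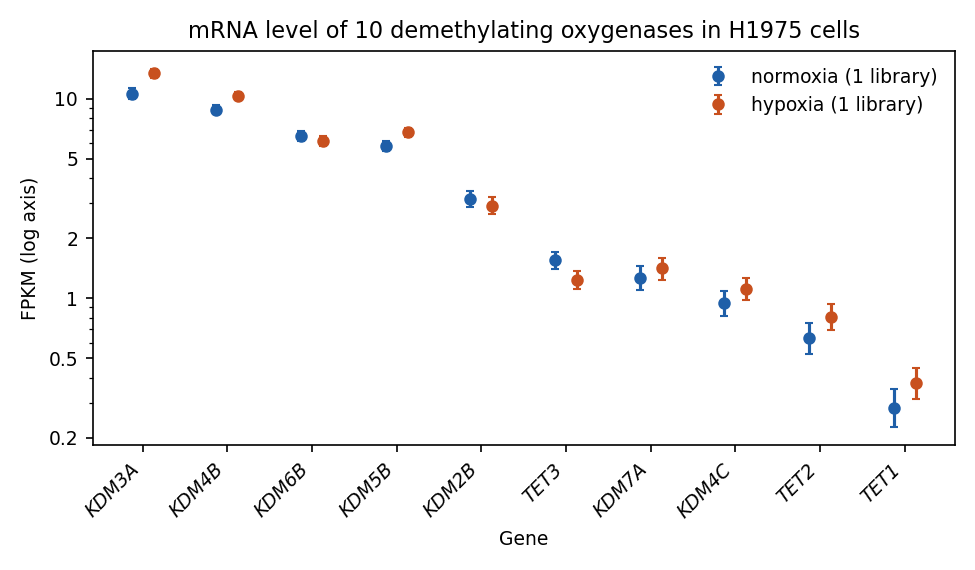
FPKM of each of the 10 genes in the normoxia and the hypoxia library (log axis), ordered by the normoxia value, with bars for the 95% counting interval. KDM3A is highest at 10.6 and 13.4 FPKM, TET1 lowest at 0.283 and 0.376, and TET3 is above KDM7A in normoxia but below it in hypoxia, with overlapping intervals in both.

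Relatives within each family were compared by the ratio of their ratios, which does not depend on how the libraries are scaled. This was computed for 15 pairs, each with an exact conditional 95% interval that covers counting error, without adjustment over the pairs. The pairs were chosen after seeing the data, and no share over other gene pairs was computed, so their counts describe these pairs only. In 6 pairs the interval excluded 0, in 5 with the ratio of the first gene named higher and in 1 lower. Here and below, to exceed means to have a higher ratio of hypoxia to normoxia, not a higher level. TET1 exceeded TET3 by 0.74 on the log2 scale (0.27 to 1.21) and TET2 exceeded TET3 by 0.68 (0.28 to 1.09). On the log2(FPKM + 1) scale these differences were 0.29 and 0.34. TET1 and TET2 differed by 0.05 (-0.49 to 0.60), an interval too wide to show that they were alike. Within the summed FPKM of the family, 2.47 in normoxia and 2.42 in hypoxia, the share of TET3 was 63.0% and 51.1%. The share of TET2 was 25.6% and 33.4%, and that of TET1 was 11.5% and 15.5%.

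The ratio of KDM3A exceeded that of its closest relative KDM3B, which acts on the same methyl forms, by 0.23 (0.09 to 0.38). KDM3B had 2107 and 2438 counts and a log2 ratio of 0.12 (0.03 to 0.20). The third member of that family, JMJD1C, was at 0.06 (-0.07 to 0.19), and KDM3A exceeded it by 0.29 (0.11 to 0.47). KDM3A made up 34.7% of the family's FPKM in normoxia and 38.7% in hypoxia. In the KDM4 family no pair separated. KDM4B exceeded KDM4A (log2 ratio 0.11, -0.01 to 0.23) by 0.13 (-0.03 to 0.29), and KDM4B and KDM4C differed by -0.0048 (-0.30 to 0.29). KDM4D, at 65 and 69 counts, was at -0.0066 (-0.52 to 0.50).

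The ratio of KDM5B exceeded that of KDM5C by 0.27 (0.14 to 0.40). KDM5C was the most abundant lysine 4 demethylase of the family, at 31.6 and 30.7 FPKM. The other relative, KDM5A, was at 0.19 (0.06 to 0.32), and KDM5B differed from it by 0.05 (-0.13 to 0.22). KDM2B lay below KDM2A by 0.25 on the log2 scale (ratio of ratios -0.25, -0.45 to -0.05). KDM2A had 10690 and 12612 counts, a log2 ratio of 0.15 (0.11 to 0.18), and held 96.0% of the FPKM of the 2 genes in normoxia. KDM6B and KDM6A, the X-linked lysine 27 demethylase (0.14, -0.02 to 0.30), differed by -0.20 (-0.40 to 0.00055). KDM7A differed from PHF8 by 0.13 (-0.18 to 0.44) and from PHF2 by 0.16 (-0.16 to 0.48).

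**Figure D4:**
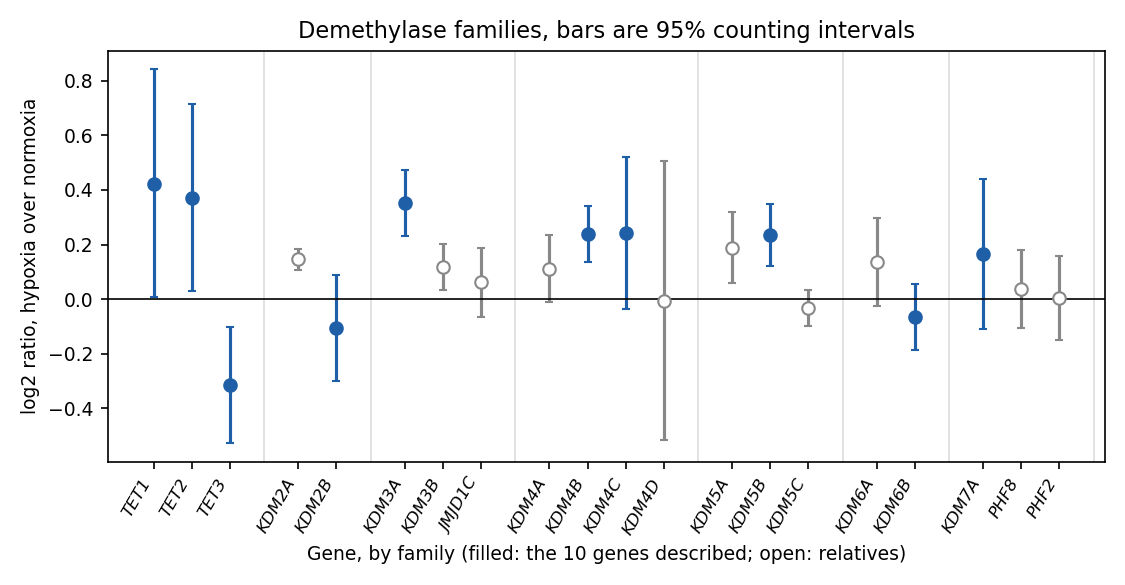
Log2 ratio of hypoxia to normoxia for the members (filled) and their relatives (open) by family, with 95% counting intervals. TET3 at -0.31 and KDM2B at -0.11 lie below their relatives, while KDM3A at 0.35 lies above KDM3B at 0.12 and JMJD1C at 0.06.

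Of 20 other chromatin oxygenases listed, 19 passed the filter. Their median log2 ratio was 0.02. The interval of 3 lay above 0 and that of 1 below, beside 15.0% and 14.0% of all genes tested. Without the length trend, 1 interval lay above 0 and 1 below. With the trend left in, the highest were KDM5A, KDM2A and KDM6A (0.14). The lowest were the ribosomal oxygenase RIOX1 at -0.47 (-0.67 to -0.27), HSPBAP1 at -0.24 (-0.57 to 0.09) and KDM8 at -0.21 (-0.62 to 0.21). The flavin-dependent demethylases, which use oxygen without 2-oxoglutarate, were KDM1A at 0.00054 (-0.08 to 0.08) and KDM1B at 0.03 (-0.16 to 0.21).

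The methyltransferases that write the same histone marks gave a median of 0.04 over 23 genes, with 5 intervals above 0 and 1 below. Over all genes tested, 15.0% of intervals lay above 0 and 14.0% below. Without the length trend the median of the 23 was -0.0075, with 2 intervals above 0 and 4 below. With the trend left in, the lysine 4 writers were the highest group, with a median of 0.14 over 6 genes and 4 intervals above 0. KMT2A was at 0.26 (0.16 to 0.37), KMT2D at 0.15 (0.08 to 0.23), SETD1B at 0.14 (0.01 to 0.28), KMT2B at 0.14 (0.01 to 0.27) and KMT2C at 0.08 (-0.04 to 0.21), while SETD1A was at -0.15 (-0.26 to -0.04). These too are long genes, with a median of 11676 bases, and without the length trend their median was 0.08 and 1 interval (KMT2A) lay above 0.

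Among lysine 9 writers SETDB1 was at 0.20 (0.07 to 0.32), EHMT2 at 0.09 (-0.01 to 0.18) and EHMT1 at 0.02 (-0.09 to 0.12). SUV39H1 was at -0.05 (-0.20 to 0.09), SUV39H2 at -0.14 (-0.42 to 0.14) and SETDB2, on 28 and 24 counts, at -0.32 (-1.16 to 0.52). No interval of the lysine 27 writer complex excluded 0. EZH2, its catalytic subunit, was at -0.0044 (-0.10 to 0.09), SUZ12 at -0.13 (-0.27 to 0.01) and EED at 0.07 (-0.10 to 0.24). EZH1, RBBP4 and RBBP7 lay at -0.06, -0.06 and 0.03. The lysine 36 writers ran from -0.07 (ASH1L) to 0.10 (NSD1), with NSD3 at 0.07, NSD2 at 0.06 and SETD2 at 0.04, and the interval of each spanned 0.

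In the machinery that maintains DNA methylation, which the TET enzymes oppose, 4 of 4 genes had a log2 ratio below 0, with a median of -0.10. Of all 12725 genes tested, 6275 had a log2 ratio below 0, and the interval of 14.0% lay wholly below it. The intervals of DNMT1 (-0.08, -0.13 to -0.03), the maintenance methyltransferase, and of UHRF1 (-0.12, -0.20 to -0.05), which guides it to replicated DNA, lay below 0. DNMT3A at -0.07 (-0.24 to 0.10) and DNMT3B at -0.15 (-0.36 to 0.07) spanned it. Counts over both libraries were 13703 for DNMT1 and 6119 for UHRF1, against 1156 for DNMT3A and 709 for DNMT3B. TDG, the glycosylase that excises oxidised 5-methylcytosine made by the TET enzymes, had 392 counts in normoxia and 348 in hypoxia and a log2 ratio of -0.26 (-0.48 to -0.05). TDG thus lay on the side of TET3, not of TET1 and TET2. The CXXC zinc finger gene CXXC5 was at 0.19 (0.05 to 0.34) and OGT, a partner of TET proteins, at 0.06 (-0.0014 to 0.12). The glycosylase MBD4 was at 0.0025 (-0.14 to 0.15).

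Enzymes that supply or consume 2-oxoglutarate, succinate and fumarate were close to no difference, with a median of 0.03 over 16 genes. The highest were GLUD1 at 0.11 (0.07 to 0.16), SDHC at 0.09 (0.02 to 0.17) and SDHD at 0.09 (0.0018 to 0.18). Among the lowest were D2HGDH at -0.17 (-0.35 to 0.01), which removes 2-hydroxyglutarate, a competitor of 2-oxoglutarate at these oxygenases, and IDH3B at -0.11 (-0.18 to -0.04). IDH1 was at 0.08 (0.02 to 0.14) and IDH2 at 0.02 (-0.07 to 0.11).

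Partners of chromatin complexes had a median of 0.03 over 10 genes. BCOR, a subunit of the Polycomb complex that holds KDM2B, was at 0.23 (0.10 to 0.37), on the opposite side of 0 from KDM2B. Its other subunits PCGF1 and RYBP were at 0.12 (-0.08 to 0.33) and 0.13 (-0.03 to 0.29), and RING1 was at -0.17 (-0.28 to -0.06). CXXC1 was at -0.14 (-0.28 to -0.00018) and BAP1 at -0.03 (-0.10 to 0.04). The HIF hydroxylases, oxygenases of the same class that act on HIF, were at 0.28 (EGLN1, 0.19 to 0.38), -0.20 (EGLN2, -0.41 to 0.0061), 0.63 (EGLN3, 0.53 to 0.73) and 0.01 (HIF1AN, -0.08 to 0.11). KDM3A thus lay between EGLN1 and EGLN3, and below the median of the HIF targets (0.64).

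**Figure D5:**
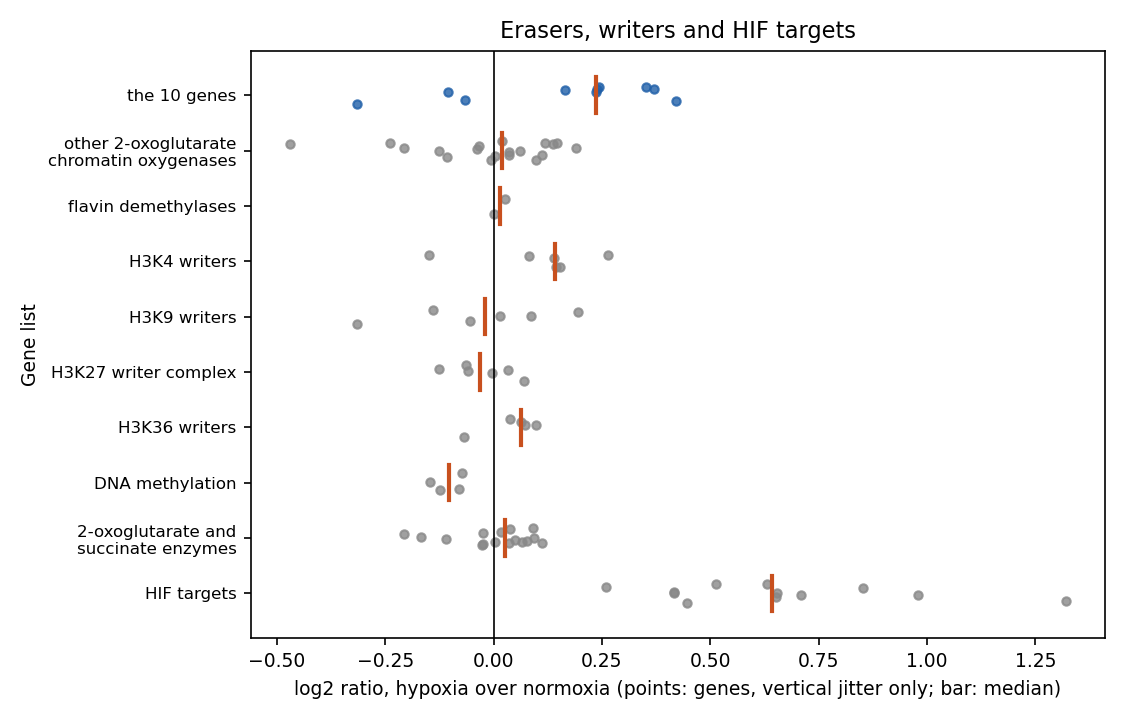
Log2 ratio of hypoxia to normoxia of each gene (points, jittered vertically only) by list, with the list median as an orange bar. The median of the 10 genes (0.24) lies between those of the other chromatin oxygenases (0.02) and the HIF targets (0.64). All 4 DNA methylation genes lie below 0, as do 6275 of the 12725 genes tested. The lists were chosen with earlier results of these data known. Their gene lengths differ (median 10231 bases for the 10, 5395 for the other oxygenases), and the values are not adjusted for length.

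Overlapping annotation limits some values, because the strand setting of the counting was not stated in the labels or file headers. RNF34, with 415 and 553 counts, shares 15888 bases of its span with KDM2B, and BOLA3 shares 99 with TET3. The antisense gene TET2-AS1 shares 108450 bases with TET2 and has no row in the tables. Annotated as protein coding, LOC124904106 shares 10121 bases with KDM6B and LOC124900868 shares 25136 with TET2. They have no row either. No gene in the annotation overlaps KDM3A, KDM4B or KDM7A.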

How the data were processed

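RNA-seq of H1975 cells, 1 library in normoxia and 1 in hypoxia, was used, and the 2 miRNA libraries were not used here. The read counts per gene are those the authors deposited, and the tools listed in the submitters' processing notes are HTSeq, HISAT2, Bowtie, Cufflinks and Trimmomatic, with the build GRCh38 and with no version or role. The FPKM that the authors deposited equal these counts over the library total and a gene length, and the lengths came out whole within 0.01 bases for 100% of genes with reads in both libraries. The strand setting and annotation used are not stated there.

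Counts were scaled by TMM over the whole table (edgeR 4.0.16, R 4.3.3). Ratios, exact conditional (Clopper-Pearson) 95% intervals and the running median over length (1001 genes) came from Python 3.11.15 (scipy 1.17.1, numpy 2.4.6, pandas 2.3.3), with figures from matplotlib 3.10.9. FPKM intervals are exact Poisson. All intervals cover counting error only, and PCR copies cannot be told from separate molecules without identifiers. The filter kept genes whose CPM reached 1 in either library. With 1 library a group no p-value exists for the condition. Alternatives were upper quartile scaling, total counts, size factors from DESeq2 1.42.0, FPKM with a pseudocount of 1 or 0.1, other filters and call sizes, and removal of the length trend. The procedure was tested on simulated data that held counting (Poisson) error only. Such data cannot show how the intervals fare against spread between cultures.

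The members, lists and rules were chosen with earlier results of these data known. Named genes are all members, all genes of lists of 6 or fewer, the 3 highest and 3 lowest of longer lists, and a fixed set of relatives and HIF targets. JMJD1C, IDH2 and the overlapping genes were named besides, and some values that the rule would name are not reported here. No gene was named for likeness of pattern, since 2 libraries give 1 difference per gene. Coordinates and promoters come from RefSeq (GRCh38.p14), which matched 15526 genes by Entrez identifier and all 10 members.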

Additional observations from a re-analysis of the deposited data

How the results depend on the processing

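No paired analysis was possible because each condition has 1 library, and for the same reason no replicate could be left out. DESeq2 size factors, upper quartile, total counts and FPKM with a pseudocount left each of the 10 members' log2 ratios inside its main counting interval. Removal of the length trend did so too. The size factors, upper quartile and total counts shift every log2 ratio alike, by 0.0014, -0.0023 and -0.0098. Shifts this small could not take a member's ratio or a list median out of its interval. The members with an interval above 0 numbered 5 with TMM, 4 with total counts (without TET1) and 3 with the length trend removed, which lowers every member. None of the 10 was called at a ratio of 2, while 3 were at a ratio of 1.2 or more. The median of the 10 (0.24) was 0.11 on the log2(FPKM + 1) scale, 0.22 with a pseudocount of 0.1 and 0.17 without the length trend. A pseudocount pulls genes of low FPKM toward 0. With a pseudocount of 1, KDM4C was at 0.12, KDM7A at 0.09, TET1 at 0.10, TET2 at 0.15 and TET3 at -0.19, and the difference of TET1 from TET2 went from 0.05 to -0.05. Narrower and wider windows for the length trend gave 0.17 and 0.18. The filters changed no member value. The list medians stayed inside their intervals under each scaling, FPKM and length alternative. The 15 pair differences, chosen after seeing the data, do not depend on the scaling, so only the pseudocounts and the length step could move them. They stayed inside their intervals, some of which are wide. With a pseudocount of 1, TET2 minus TET3 went from 0.68 to 0.34. For a median, the interval was taken from the median lower to the median upper bound. Depth limits KDM4C, KDM7A, TET1 and TET2, whose intervals are widest.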
